A study of Mus musculus with 6 samples.

Results

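The cluster that runs from miR-379 to miR-410 is a row of miRNA hairpins on mouse chromosome 12, and its members here were 41 mature miRNAs (15 from 5p arms and 26 from 3p arms) chosen by name from 30 hairpins. All 41 were found among the 1101 miRNA labels of the table, and the reads of each label were added up per library. The samples were brains (cortex with hippocampus) of male mice labelled BL6 (C57BL/6 J in the study's methods). There were 3 samples at 2 months (2M) and 3 at 18 months (18M), with no treatment or altered gene in either group. The labels do not say that each sample is a separate mouse. Small RNAs held by the RNA-induced silencing complex (RISC) were pulled down with a GW182 peptide that binds Ago1-4 and were sequenced (Ago-RP-Seq). The purpose of the study's comparison was to ask how the small RNAs in the RISC differ between young and old brain. Values are in RPM, the reads of a sequence after each library was scaled to the same total.

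The cluster lies in an imprinted region in which the hairpins are read from the maternal chromosome as a long noncoding transcript, part of which is the host gene Mirg. It is known for its expression in brain, where neuronal activity raises it through the transcription factor Mef2 and where members such as miR-134, miR-329, miR-485 and miR-495 act on dendrites, spines and synapses. A hairpin is cut into a 5p and a 3p arm, one of which is usually kept by Argonaute, and the kept strand finds its targets with its seed, so a shift of the 5′ end or a changed base within the seed gives other targets. Several transcripts of the cluster, among them those of the miR-376 group, are known substrates of the ADAR enzymes, which turn adenosine into inosine, a base that is read as G.

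Each library held between 19272046 and 25080484 reads, and 3 reads corresponded to 0.120 to 0.156 RPM. Neuronal marker miRNAs (5 labels, led by miR-124-3p and miR-9-5p) summed to 236303 to 251786 RPM at 2M and 211301 to 268408 RPM at 18M. Of the lists of other cell types, the microglia and immune list (4 labels) was lower at 18M without overlap, with 3398 to 3821 RPM at 2M and 2453 to 2992 RPM at 18M. The lists for oligodendrocytes, vessels, erythrocytes, olfactory or epithelial cells and pituitary overlapped between the ages. The olfactory or epithelial list (5 labels) summed to 31163 to 36775 RPM at 2M and 24468 to 40828 RPM at 18M. The pituitary list (3 labels, with miR-375-3p) summed to 325 to 2571 RPM at 2M and 344 to 356 RPM at 18M. The library 2M replicate 1 stood apart in miR-375-3p, a miRNA of endocrine tissue, with 1124 RPM against 31.0 to 42.2 RPM in the other 5 libraries. In such bulk tissue, fewer cells of a type and less RNA per cell cannot be told apart.

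The hairpins of the members span chromosome 12, positions 109709060 to 109743795 on the plus strand (34.7 kb, GRCm38.p6), from Mir379 to Mir410. The Mirg gene of GENCODE M21 (positions 109729764 to 109749460) covers the distal end, so that 18 hairpins lay outside it, 4 lay in its introns and 8 overlapped an exon of any of its isoforms. RefSeq gave a mature sequence for 38 of the 41 members. Shown first are the most abundant members with a RefSeq entry and miR-412-5p, the member with the largest difference between the ages, each with its seed (bases 2 to 8) in capitals.
mmu-miR-369-3p: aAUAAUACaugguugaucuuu
mmu-miR-410-3p: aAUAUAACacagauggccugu
mmu-miR-300-3p: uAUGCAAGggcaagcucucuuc
mmu-miR-376a-3p: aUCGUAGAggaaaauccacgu
mmu-miR-381-3p: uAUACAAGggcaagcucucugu
mmu-miR-411-5p: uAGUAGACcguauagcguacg
mmu-miR-495-3p: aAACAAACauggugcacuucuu
mmu-miR-382-5p: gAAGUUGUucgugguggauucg
mmu-miR-154-5p: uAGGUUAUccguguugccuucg
mmu-miR-412-5p: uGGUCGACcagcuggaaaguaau

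The 38 sequences held 37 different seeds of bases 2 to 8, and the only seed that occurred in more than 1 member was AUGUAAC, shared by the 3p arms of the neighbouring hairpins Mir379 and Mir411. Many 3p arms nevertheless carried the same letters just behind the seed. The motif ACANGG, searched on the strand of the mature RNA and overlapping the last bases of the seed in most members, stood in 10 of the 24 3p arms (41.7%) and in 0 of the 14 5p arms. Among the other mature miRNAs of RefSeq it stood in 42 of 1641 (2.56%), and among their 3p arms in 10 of 685 (1.46%). In 7 members it began at base 7, and these are shown with the motif in capitals.
mmu-miR-379-3p: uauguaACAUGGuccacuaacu
mmu-miR-411-3p: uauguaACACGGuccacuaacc
mmu-miR-323-3p: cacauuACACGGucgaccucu
mmu-miR-495-3p: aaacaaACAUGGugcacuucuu
mmu-miR-485-3p: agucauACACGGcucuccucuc
mmu-miR-154-3p: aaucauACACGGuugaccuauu
mmu-miR-369-3p: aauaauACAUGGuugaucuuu
These 7 members came from both ends and the middle of the cluster (0 to 34.4 kb from Mir379). The motif was chosen after the sequences had been seen, members of a cluster that arose by duplication share descent, and a match is no site of binding.

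Although the hairpins come from 1 region, the levels of the 41 members in the RISC spanned a 536-fold range. The mean over the 6 libraries was 5671 RPM for miR-369-3p, the highest member, and 10.6 RPM for miR-494-3p, the lowest, with a median of 451 RPM. All 41 members had a mean of at least 10 RPM, 34 of at least 100 RPM and 10 of at least 1000 RPM. The 5 highest members held 46.1% of the reads of the 41 members and the 10 highest 67.0%, and members from 3p arms held 79.0%. Other arms of these hairpins that were not chosen as members, such as miR-376b-5p (902 RPM) and miR-376a-5p (236 RPM), are not in these shares. High and low members lay side by side. At the distal end, miR-369-3p came from the hairpin next to Mir412, whose miR-412-5p had 40.8 RPM, and miR-410-3p (2850 RPM) from the hairpin after that of miR-369-3p. At the proximal end, miR-411-5p had 1380 RPM and miR-758-3p, a few kb on, had 15.1 RPM. Members outside Mirg had a median of 474 RPM (24 labels), members in its introns 486 RPM (6 labels) and members overlapping its exons 362 RPM (11 labels). Across the 41 members, level and distance from Mir379 had a Pearson's r of 0.28 and a Spearman's rho of 0.20, given as a description since the members share libraries and a transcript. These are levels of reads, and how evenly unlike sequences were ligated was not tested.

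**Figure D1:**
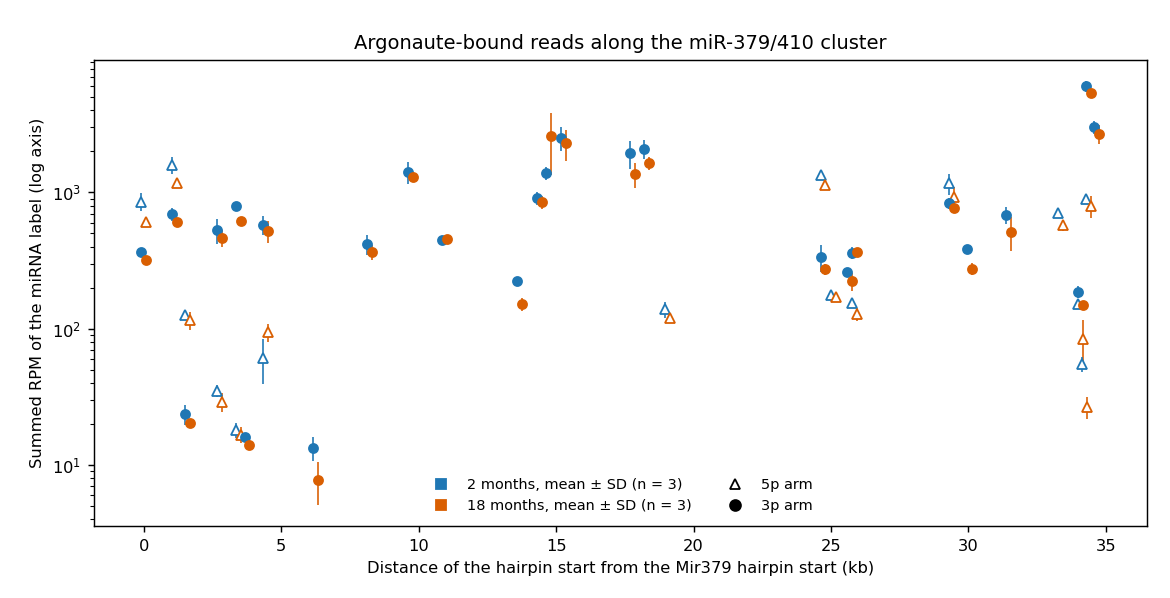
Summed RPM of each of the 41 members (log axis) against the distance of its hairpin from Mir379 in kb, as mean ± SD of 3 libraries per age, with triangles for 5p and circles for 3p arms. The levels run from 10.6 RPM for miR-494-3p to 5671 RPM for miR-369-3p, and high and low members lie side by side.

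The single libraries showed how stable these levels were. For miR-369-3p, which is known to act on AU-rich messages such as that of TNF, they were 6303, 6354 and 5335 RPM at 2M and 5176, 5557 and 5303 RPM at 18M. For miR-410-3p they were 2654, 3318 and 3024 RPM at 2M and 3098, 2241 and 2765 RPM at 18M. In both miRNAs the ages overlapped. For miR-487b-3p they were 2109, 2436 and 1751 RPM at 2M and 1619, 1826 and 1486 RPM at 18M, again with overlap. For miR-495-3p, which is known to target the message of the neurotrophin BDNF, they were 1416, 1678 and 1152 RPM at 2M and 1374, 1329 and 1221 RPM at 18M. For miR-154-5p they were 983, 1120 and 1386 RPM at 2M and 936, 762 and 1096 RPM at 18M. Neither of these separated the ages. Across members, the coefficient of variation between the 3 libraries of an age had a median of 10.6% at 2M and 10.9% at 18M. The largest was 48.4%, for miR-376a-3p at 18M, where replicate 1 had 3941 RPM and the other libraries 1475 and 2339 RPM, against 1317, 1274 and 1545 RPM at 2M. In every library miR-369-3p was above all other members, while from miR-410-3p down to miR-154-5p, the last of the 10 highest, each member overlapped the next one in its range over the 6 libraries.

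Which arm of a hairpin sat in the RISC was read from 20 hairpins whose 5p and 3p labels both had a mean of at least 10 RPM. The 3p arm was higher in 12 (60.0%) and the 5p arm in 8, against 43.2% with a higher 3p arm among all 148 hairpins that passed the same filter. In these 20, the ratio of 5p to 3p, as (5p RPM + 1)/(3p RPM + 1), ranged from nearly equal arms to 122-fold in favour of the 3p arm. The filter left out hairpins with an arm below 10 RPM, which can be more one-sided in either direction. Among those left out were the hairpins of miR-410-3p (2850 RPM), miR-487b-3p (1871 RPM) and miR-541-5p (643 RPM). Of the 20 ratios, the 5 farthest from 1 all favoured the 3p arm. In Mir495 the 3p arm was 122-fold higher, and the ratio ran from 0.00620 to 0.00984 over the 6 libraries. The 3p arm was 40.6-fold higher in Mir377, 39.8-fold in Mir381, 38.2-fold in Mir323 and 33.6-fold in Mir300. Within the 20 hairpins, the strongest use of the 5p arm was found in Mir134. Its miR-134-5p, a miRNA known to limit the size of dendritic spines, was 8.05-fold over its 3p arm. Of the 20, the arms were closest in Mir376b (1.02-fold) and Mir154 (1.29-fold).

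**Figure D2:**
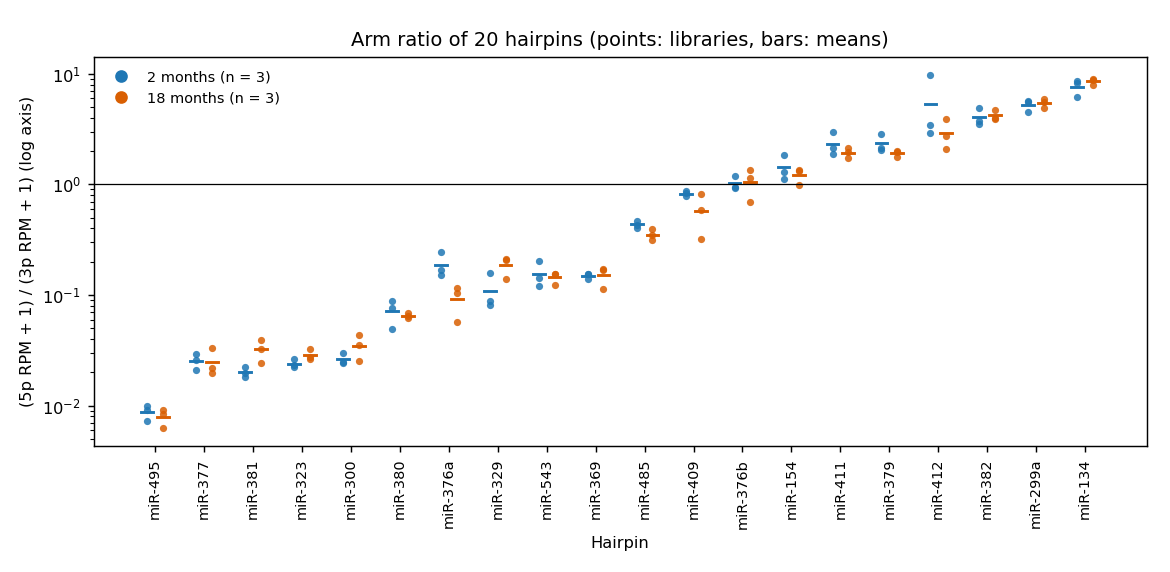
Ratio of (5p RPM + 1) to (3p RPM + 1) on a log axis for 20 hairpins of the cluster, with a point for each library and a bar for the mean of each age. The points of a hairpin spread least in hairpins such as miR-299a and most in miR-412 (2.10 to 9.80) and miR-376a (0.0573 to 0.245), while the means differ from 122-fold in favour of the 3p arm (miR-495) to 8.05-fold in favour of the 5p arm (miR-134).

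Between the ages, no arm ratio of the cluster passed the test (limma with Benjamini-Hochberg adjustment over 148 hairpins, lowest adjusted p = 0.57 among the 20), and none of the 148 hairpins did (0%). At an unadjusted p under 0.05 there were 3 hairpins of the cluster and 11 of all 148 (7.43%). In Mir376a the log2 ratio was -2.44 ± 0.361 at 2M and -3.50 ± 0.546 at 18M (SD, n = 3), a log2 difference of -1.06 ± 0.32 (SE). In Mir381 it was -5.65 ± 0.149 at 2M and -4.98 ± 0.343 at 18M, a log2 difference of 0.66 ± 0.21. The ages did not overlap in either hairpin. In Mir329 the log2 difference was 0.81 ± 0.31 and the ages overlapped.

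The 5′ end of a read sets its seed. In 5 of the 38 members with a RefSeq entry the most abundant read began elsewhere than the RefSeq sequence. The read began 1 base earlier for miR-411-5p and miR-323-3p and 2 bases earlier for miR-382-3p, and it began 2 bases later for miR-496a-3p and 3 bases later for miR-485-3p. In 12 members (29.3%) a second 6mer seed (read positions 2 to 7) held at least 10% of the reads, while this was so for 26.2% of all labels tested. In miR-323-3p the main seed held 55.3% and the second 43.0% of the reads. The split was 59.2% and 39.7% in miR-411-5p, 56.1% and 38.4% in miR-409-3p, and 52.6% and 36.5% in miR-485-3p. A change of seed could change the 6mer seed viability, the percent of cells alive after transfection with an siRNA that carries the seed, as the mean of 3 murine lines. It was 43.5 for the main seed of miR-377-3p and 73.5 for its second, and 17.4 and 53.7 for those of miR-667-3p.

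The share of the cluster's reads that were off the main seed of their label was 10.3% ± 0.466 (SD, n = 3) at 2M. At 18M it was 9.68% ± 0.910, and the ages overlapped (exact permutation test, two-sided, p = 0.3, where 0.1 is the smallest p of 3 against 3). In single members this share separated the ages in 9 of 41, against 13.9% of all labels tested (66 of 474), and it was lower at 18M in 8 of the 9. The direction was not counted over all labels. The widest gap was in miR-496a-3p, with 15.5%, 16.8% and 18.0% at 2M and 12.2%, 11.4% and 11.7% at 18M. In miR-667-3p it was 16.9% ± 0.225 at 2M and 15.6% ± 0.150 at 18M (SD, n = 3).

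Many reads of the cluster differed from their miRNA at 1 base. Among reads of at least 18 nt with the 5′ end of a member's main read, 9 positions in 9 members had a G in place of an A in at least 1% of the reads, out of 174 A positions read at least 1000 times (5.17%). Base 4 of miR-381-3p is not in this count, because the read with G there has the first 18 bases of miR-300-3p, and it is described apart. Over all labels tested the share was 3.27% (56 of 1714), and among the other labels alone 47 of 1540 (3.05%). Of the other 11 kinds of substitution, none of 1667 positions in the members reached 1%, and 18 of 17694 (0.102%) did so in other labels. The A-to-G positions with the highest shares lay in the seed, and the substituted base is in capitals in the main and the substituted read of the miRNAs for which RefSeq gave a sequence. Positions are counted from 1 at the 5′ end of the main read.
mmu-miR-376b-3p, main read: atcatAgaggaacatccactt
mmu-miR-376b-3p, A6G read: atcatGgaggaacatccactt
mmu-miR-411-5p, main read: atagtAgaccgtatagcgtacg
mmu-miR-411-5p, A6G read: atagtGgaccgtatagcgtacg
mmu-miR-379-5p, main read: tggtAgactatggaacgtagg
mmu-miR-379-5p, A5G read: tggtGgactatggaacgtagg

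In miR-376b-3p (hairpin at chromosome 12, 109723458 to 109723539, outside Mirg) 74.4% of the reads had the substitution A6G, and in miR-376c-3p, from a hairpin nearby (109722718 to 109722803), 50.1% had A6G. In miR-376a-3p, the third member of the group, G stood at position 6 in 0.0440% of the reads and a lesser substitution, A12G, in 1.54%. In the first pair of hairpins of the cluster, miR-411-5p had A6G in 36.2% and miR-379-5p had A5G in 18.4%. The second 5′ end of miR-411-5p, which begins 1 base later, had A5G in 33.2%, the same base of the hairpin. The remaining positions were A10G in miR-377-3p (5.56%), A7G in miR-381-3p (3.86%), A7G in miR-300-3p (1.98%, and 1.02% among the reads with its own ending, bases 21 and 22) and A2G in miR-154-5p (1.02%). Of arms that are not members, miR-376a-5p had A4G in 45.9% and miR-376b-5p had A7G in 10.7% of the reads. Whether the G stands for inosine was not tested, since the files hold reads only.

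The substitution changed the 6mer seed viability of the 4 most affected members to a lower value in each case. It was 66.8 for the main and 44.2 for the A6G seed of miR-376b-3p, 78.1 and 46.4 for those of miR-376c-3p, and 84.3 and 47.3 for those of miR-411-5p. For miR-379-5p it was 34.4 for the main seed and 15.7 for the A5G seed.

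With age, the share of A-to-G reads was higher at 18M without overlap at 5 of the 9 positions and lower without overlap at 0. Among all 56 positions of all labels, 41.1% were higher without overlap and 0% lower, so the direction was shared with positions outside the cluster. The widest gap was in miR-376c-3p, with 41.6%, 41.4% and 45.3% at 2M and 58.8%, 54.6% and 61.0% at 18M, a difference of 15.4 percentage points (exact permutation test, two-sided, p = 0.1, adjusted p = 0.18 over the 9 positions). In miR-376b-3p the share was 70.6%, 74.9% and 69.6% at 2M and 76.5%, 75.8% and 78.0% at 18M. In miR-379-5p it was 17.5% ± 0.463 (SD, n = 3) at 2M, and at 18M it was 19.8% ± 0.181. The gap was 5.03 and 2.33 percentage points in these 2 miRNAs. The other positions without overlap were A2G of miR-154-5p (0.865% ± 0.0819 and 1.26% ± 0.248, SD, n = 3) and A7G of miR-300-3p (1.74% ± 0.220 and 2.27% ± 0.402). Among the reads with the ending of miR-300-3p itself, the latter overlapped between the ages, with 0.896% ± 0.130 at 2M and 1.21% ± 0.246 at 18M (SD, n = 3). In miR-411-5p the share was 34.7% ± 1.87 (SD, n = 3) at 2M and 37.9% ± 2.22 at 18M, and the ages overlapped (exact permutation test, p = 0.3, adjusted p = 0.39). Summed over the 9 positions, the share was 177 to 183 percentage points in the 2M libraries and 204 to 214 in the 18M libraries, a difference of 27.5 (exact permutation test, two-sided, p = 0.1, the smallest possible). No single position passed the adjustment, which 3 against 3 libraries cannot reach.

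**Figure D3:**
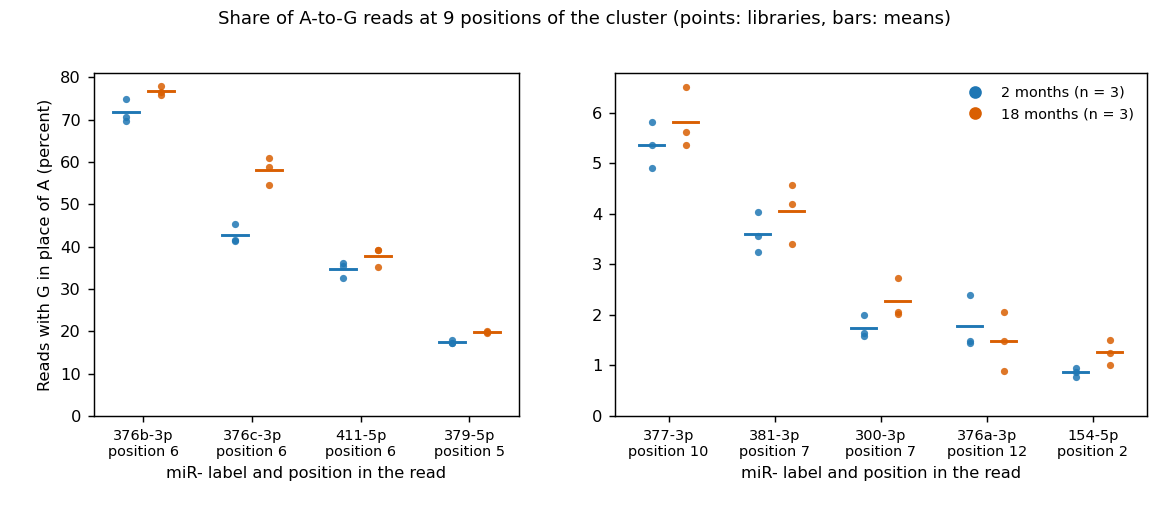
Percent of reads with G in place of A at 9 positions of the members, with a point for each library and a bar for the mean of each age, in 2 panels of different scale. The 3 libraries of 18M lie above the 3 of 2M in miR-376b-3p, miR-376c-3p, miR-379-5p, miR-300-3p (all endings) and miR-154-5p.

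The reads of miR-381-3p and miR-300-3p needed a closer look, since their first 20 bases differ at base 4 alone and their last bases tell them apart. Of the reads with the ending of miR-381-3p, 14.4% had G at base 4 as miR-300-3p does, and all of these carried the label of miR-300-3p (248 RPM). Of the reads with the ending of miR-300-3p, 0.0533% had A at base 4. The share of G at base 4 among reads with the miR-381-3p ending was 9.73%, 13.4% and 13.8% at 2M and 15.4%, 18.5% and 18.5% at 18M, without overlap (exact permutation test, two-sided, p = 0.1, chosen after seeing the data). The label miR-300-3p thus held reads that carried the ending of its relative. Among reads with G at base 4, the ending of miR-381-3p was borne by 16.3% of those with A at base 7, but by 57.3% of those with G at base 7 (17.6 RPM, against 13.1 RPM with the ending of miR-300-3p).

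Except for A2G of miR-154-5p, the substituted reads at these positions carried no miRNA label, so that they are absent from the sums of the labels. The A6G read of miR-376b-3p was the most abundant of all reads without a miRNA label, with a mean of 1861 RPM. A separate small RNA annotation of the deposited data did name the mir-376b hairpin for this read. When the A-to-G reads were added to their members, a step chosen after seeing the data, miR-376b-3p rose from rank 11 to rank 2 among the 41 members, from 879 to 3346 RPM. The 5p to 3p ratio of Mir376b changed from 1.02 to 0.268, that is from nearly equal arms to an excess of the 3p arm. It was 0.296 when the A7G reads of miR-376b-5p (95.3 RPM) were added to the other arm as well. The ratio of Mir379 changed from 2.11 to 2.58. That of Mir411 changed from 2.10 to 2.81 with the A6G reads of the main 5′ end, and to 3.22 with the A5G reads of the second 5′ end (270 RPM) added too. All other values with A-to-G reads added count the 9 positions alone. The ratio of Mir376a was not recomputed with the A4G reads of miR-376a-5p. Their share was 44.6% ± 3.11 at 2M and 46.9% ± 1.20 at 18M (SD, n = 3).

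**Figure D4:**
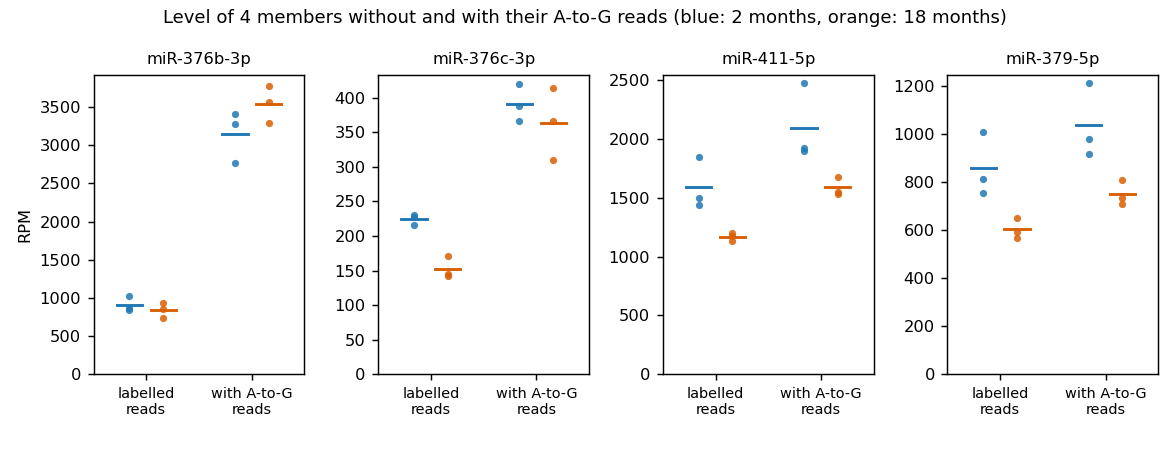
RPM of 4 members in each library (points, with a bar for the mean of each age), counted from the labelled reads alone and with their A-to-G reads added, on axes from 0. In miR-376c-3p the ages are apart in the labelled reads and overlap once the A-to-G reads are added, while miR-411-5p and miR-379-5p stay apart.

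The comparison of the ages over the labels as deposited found 2 of 41 members lower at 18M and none higher (limma on log2(RPM + 1), Benjamini-Hochberg adjustment over 474 labels, threshold 0.05). This share (4.88%) was near that of all labels tested, of which 4.85% were called and 4.43% were called lower. On the recovered reads, edgeR called 1 member (2.95% of all labels) and DESeq2 called 4 (9.73% of all labels). For miR-412-5p the libraries had 53.7, 49.0 and 62.4 RPM at 2M and 20.9, 29.1 and 29.7 RPM at 18M, a log2 difference of -1.03 ± 0.17 (SE, adjusted p = 0.031). Every 18M library lay below every 2M library. For miR-376c-3p they had 228, 216 and 231 RPM at 2M and 172, 141 and 144 RPM at 18M, a log2 difference of -0.56 ± 0.12 (adjusted p = 0.0496), also without overlap. The second call was not made once the substituted reads were counted. With the A6G reads added, miR-376c-3p had 388, 366 and 419 RPM at 2M and 414, 311 and 367 RPM at 18M, with overlap and a log2 difference of -0.11 ± 0.14 (adjusted p = 0.72). Of 17 other settings, 2 called this miRNA. The call of miR-412-5p, at a level far below most members, was lost without any of the 3 libraries of 2M or without 18M replicate 1 or 3 (adjusted p = 0.0702 to 0.11).

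At an unadjusted p under 0.05, 10 members were lower (24.4% against 13.5% of all labels) and 1 was higher, miR-329-5p (all labels, 4.43%). Besides the called members, 7 of these were lower without overlap and did not pass the adjustment. For miR-379-5p the libraries had 813, 1008 and 753 RPM at 2M and 651, 591 and 569 RPM at 18M. For miR-411-5p they had 1436, 1846 and 1497 RPM at 2M and 1173, 1129 and 1200 RPM at 18M. In both miRNAs at the proximal end the gap stayed with the A-to-G reads added (log2 differences of -0.46 ± 0.15 and -0.39 ± 0.15, SE, in place of -0.50 ± 0.15 and -0.44 ± 0.14). For miR-323-3p, from the same end, they had 784, 776 and 821 RPM at 2M and 579, 667 and 596 RPM at 18M. For miR-496a-3p they had 365, 397 and 382 RPM at 2M and 274, 305 and 250 RPM at 18M, the lowest adjusted p (0.096) of those not called. In these 4 miRNAs the level at 18M was 0.708 to 0.772 of that at 2M on the scale of the fit. For miR-409-5p they had 156, 141 and 161 RPM at 2M and 88.6, 50.7 and 112 RPM at 18M. Its other arm, miR-409-3p, had 180, 170 and 207 RPM at 2M and 151, 159 and 138 RPM at 18M. Both arms of this hairpin were thus lower in every 18M library than in any 2M library. For miR-485-5p, known to reduce the density of dendritic spines, they had 158, 149 and 158 RPM at 2M and 125, 115 and 142 RPM at 18M.

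Among the remaining abundant members, miR-382-5p had 1354, 1401 and 1257 RPM at 2M and 1163, 1124 and 1142 RPM at 18M, without overlap, at an adjusted p of 0.36. For miR-381-3p the libraries had 1854, 2431 and 1548 RPM at 2M and 1670, 1106 and 1301 RPM at 18M. For its relative miR-300-3p they had 2193, 3084 and 2276 RPM at 2M and 2725, 1619 and 2542 RPM at 18M. The ages overlapped in both. The largest log2 difference upwards was that of miR-376a-3p (0.80 ± 0.34, SE, adjusted p = 0.29), in which 18M replicate 2 overlapped the 2M libraries. The synaptic miR-134-5p had 177 ± 12.5 RPM (SD, n = 3) at 2M, 171 ± 12.4 RPM at 18M and a log2 difference of -0.05 ± 0.11. In miR-667-3p and miR-485-3p the log2 difference was 0.01 ± 0.10 and 0.03 ± 0.12.

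Over the cluster, 37 of 41 members (90.2%) had a log2 difference below 0, against 62% of all labels tested, and the median was -0.20 against -0.07. In 13 members (31.7%) the 3 libraries of 18M lay below those of 2M, against 19.2% of all labels, and in 0 they lay above, against 5.7%. With the libraries scaled by the median of ratios, the median of all labels was 0.02 (a shift of 0.10), 35 members were below 0 (47.0% of all labels) and their median was -0.10. The 2M libraries held the highest value of 37 members, led by 2M replicate 2 with 17, and the 18M libraries held the lowest of 37 members, led by 18M replicate 2 with 15. This was not counted over all labels, of which 62% were below 0, so it cannot be read as particular to the cluster. The 5p arms had a median of -0.27 and the 3p arms of -0.19. Across the 41 members the log2 difference and the distance from Mir379 had a Pearson's r of -0.22 and a Spearman's rho of -0.12, a description only. Members come from a shared transcript and from the same libraries, so these counts are not independent observations.

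**Figure D5:**
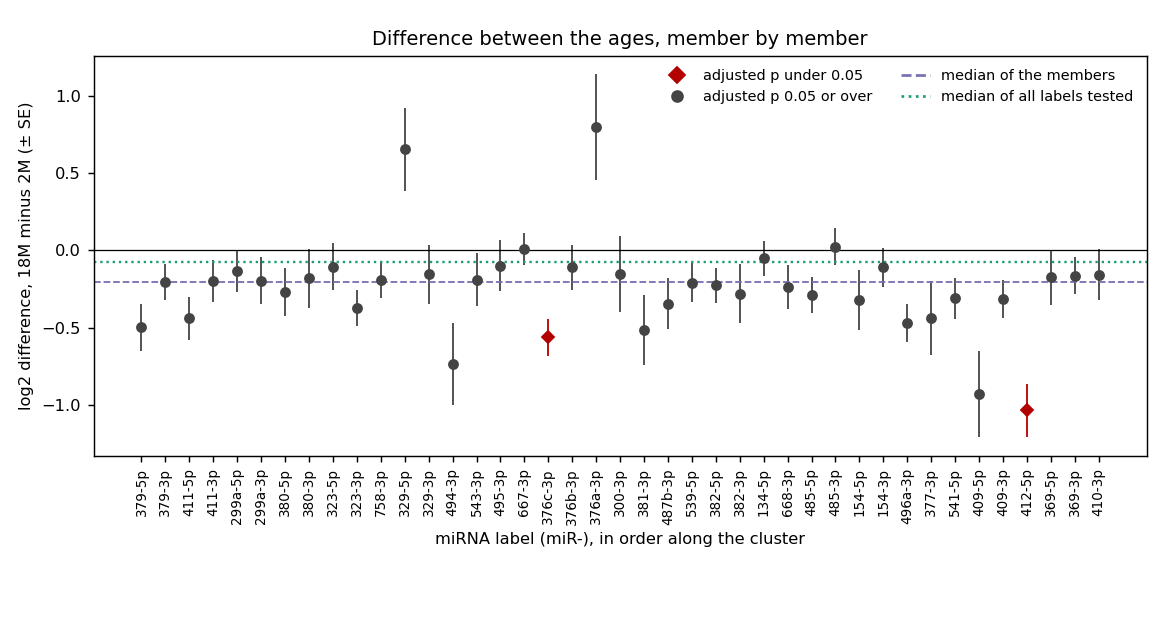
Log2 difference in RPM between 18M and 2M (± SE from limma) for each of the 41 members in order along the cluster, with the median of the members (-0.20, dashed) and of all 474 labels (-0.07, dotted). Most members lie slightly below 0, and red diamonds mark miR-376c-3p and miR-412-5p.

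Summed over the 41 members, the reads of the cluster were 33159, 36782 and 31690 RPM at 2M and 32839, 27716 and 30007 RPM at 18M. These were 3.39% ± 0.262 and 3.02% ± 0.257 of all reads (SD, n = 3). The ages overlapped, and the difference of -3690 RPM lay within the spread between the libraries (exact permutation test, two-sided, p = 0.2). The other miRNAs of the imprinted region, such as miR-127, miR-136 and miR-434 from the Rtl1 antisense transcript, summed to 28473 to 48494 RPM at 2M and 25046 to 32942 RPM at 18M. The mean of their sum was 35498 RPM at 2M and 30291 RPM at 18M, against 33877 and 30187 RPM for the cluster, and the ages overlapped. Of their 21 labels with at least 10 RPM, 0 were called, 13 were below 0, 1 was lower without overlap, and the median log2 difference was -0.03. The microglia and immune markers were lower at 18M, which was also the direction of the members. The means of all the other cell type lists were lower at 18M too, with overlap between the ages. What part any of these lists had in the values of the members was not tested. Without 2M replicate 1, the library with high miR-375-3p, the difference in summed RPM was -4049 (exact permutation test, two-sided, p = 0.3). Then 0 members and 3 of all 474 labels were called. The members called were likewise 0 without 2M replicate 2 or 3 and without 18M replicate 1 or 3.

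The mean 6mer seed viability of the cluster's reads was 75.3 ± 0.376 (SD, n = 3) at 2M and 75.4 ± 0.555 at 18M (p = 0.7 in the two-sided exact permutation test). That of all labelled reads was 58.1 ± 0.0971 at 2M and 57.8 ± 0.268 at 18M (SD, n = 3). Here the ages did not overlap (exact permutation test, two-sided, p = 0.1, the smallest possible). Among abundant members, the main seed had a viability of 94.3 for miR-410-3p and miR-381-3p, 85.6 for miR-487b-3p, 84.4 for miR-300-3p and 77.1 for miR-369-3p. In 8 members the main seed had a viability below 50, and the lowest were 5.8 for miR-485-5p, 11.7 for miR-323-5p and 17.4 for miR-667-3p. With the A-to-G reads added, the mean was 72.6 ± 0.327 (SD, n = 3) at 2M and 72.1 ± 0.778 at 18M (p = 0.4 in the exact permutation test), so that these reads lowered the mean viability at both ages by more than the ages differed.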

How the data were processed

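The values were made by the authors, who trimmed the reads (Trim Galore, per the labels, version not given in the sources used here), collapsed identical reads, removed rare ones and annotated them against mouse small RNA lists (SPOROS). The deposited table gives each of 143934 read sequences in RPM per library, with a miRNA label, a 6mer seed and, as a score, its viability. Deposited summed signal over all libraries was not used. All RPM values (100%) were whole multiples of the value of 1 read, to 0.02 of that value, so reads were recovered (19272046 to 25080484 per library), and edgeR and DESeq2 on these counts called 14 and 46 of 474 labels. The level of 3 reads covers counting error only, and SDs and SEs give the spread between libraries.

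Reads were summed per label, and no member had a read shared with another label (308 sequences in all carried several labels). Labels with a mean of at least 10 RPM were tested on log2(RPM + 1) with limma 3.58.1, with a variance trend, under R 4.3.3, with Benjamini-Hochberg adjustment at a threshold of 0.05. Fold changes on this scale understate the change of low labels. In simulated counts with a fixed dispersion, 136 of 136 labels changed 4-fold and 5 of 348 unchanged labels were called. Smaller changes, such as those seen in the members, were not simulated. Single values per library were compared with exact permutation tests. The labels number replicates and do not say that each is a separate mouse, so p-values measure the spread between samples, which may be technical.

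The members and lists were chosen with earlier results of these data known. Values of every library are given for the 10 most abundant members, for those with an adjusted p under 0.05 and for those with an unadjusted p under 0.05 whose ages did not overlap. Arm ratios are given in full for the 5 farthest from 1, and other members by range and count. Substitutions were counted at read positions 2 to 16 over the first 18 nt. Hairpins and mature sequences are from RefSeq (GRCm38.p6). The versions of edgeR and DESeq2 were 4.0.16 and 1.42.0, and the other steps were run in Python 3.11.15 (numpy 2.4.6, pandas 2.3.3, matplotlib 3.10.9). Alternatives were other pseudocounts, filters, scalings, tests and read sets, the replicate number as a block and leaving out each library, with the addition of A-to-G reads, the second 5′ ends, the split by read ending and the motif added after seeing the data.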

Additional observations from a re-analysis of the deposited data

How the results depend on the processing

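The number of members called between the ages was 2, with 23 of all 474 labels called. It was 1 with a pseudocount of 5 (22 of 474 labels) or a mean of at least 1 RPM (22 of 708). It was also 1 with median-of-ratios scaling (14 of 474), limma without the trend (15 of 474) or single-label reads (15 of 459). The same held with A-to-G reads added (22 of 474) and with edgeR (14 of 474). In all of these settings the call was miR-412-5p. With a mean of at least 100 RPM it was 0 (2 of 276), and miR-412-5p (40.8 RPM) was not tested there. DESeq2 called 4 (miR-412-5p, miR-376c-3p, miR-409-5p and, higher, miR-376a-3p), with 46 of all labels. Leaving out single libraries gave 0 to 1 members and 0 to 15 of all 474 labels. The replicate numbers did not pair the libraries: same-numbered libraries had correlations of -0.17, -0.22 and -0.10 between their deviations from the group means, and with the replicate number as a block 0 members and 1 of all 474 labels were called. The summed RPM differed by -3690 under the block as well (exact sign-flip permutation test, p = 0.25). The mean seed viability changed direction without 18M replicate 1 (-0.12; without single libraries -0.12 to 0.435) and with A-to-G reads added (-0.46), in both cases within the spread. The log2 difference of miR-300-3p was 0.0025 without 2M replicate 2 and 0.081 without 18M replicate 2 (without single libraries -0.29 to 0.081). That of miR-495-3p was 0.00040 under median-of-ratios scaling and 0.033 without 2M replicate 2 (without single libraries -0.24 to 0.033). The causes were not tested. The summed RPM (-5016 to -2238 without single libraries, -1530 under median-of-ratios scaling), the share off the main seed (-1.18 to -0.31) and the summed A-to-G share (24.2 to 29.1, 27.5 over 16 nt, 27.3 over 20 nt) kept their direction, and the A-to-G sum fell to 0.394 when only reads labelled with the member were counted, since these reads lack labels at all but 1 position. Arm ratios called stayed at 0. With 3 libraries per age, the precision is set by the spread between libraries and not by depth.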
